A study of Mus musculus with 12 samples.

Results

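The genes described here are 35 genes of the endoplasmic reticulum (ER) stress response and of the response to the transcription factor ATF4, chosen by their names from the 52033 genes used of the deposited table. Of these, 22 belong to the ER chaperone branch (chaperones, ER-associated degradation, and the sensors and factors that drive them) and 13 to the ATF4 branch (the kinase PERK, the transcription factors and their target genes).

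RNA-seq was carried out on mpkCCD cells, a mouse line from the cortical collecting duct of the kidney, to ask how hypertonicity and the osmosensitive transcription factor NFAT5 shape gene expression. Scr cells carried a scramble guide RNA that targets no gene, and Nfat5-KO cells were the CRISPR/Cas9 knockout clones N1 and N3. Both were kept for 5 days at 300 mosmol/kg (Scr_300 and Nfat5-KO_300) or at 600 mosmol/kg after 100 mM NaCl and 100 mM urea had been added (Scr_600 and Nfat5-KO_600). Scr_300 and Scr_600 had 2 libraries each and Nfat5-KO_300 and Nfat5-KO_600 had 4 each, but the table gives 1 value per gene and group. There is therefore no replicate check: no SD, no p-value and no interval could be calculated for any difference below. Effects of the 2 clones and of the lost NFAT5 cannot be told apart, nor can NaCl and urea.

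Values are FPKM (fragments mapped to a gene, relative to the length of its exons and to the library's mapped reads), which compares genes per length. Differences are log2 ratios of FPKM + 0.1 over genes with at least 0.5 FPKM in either group of a comparison, and a gene is counted as higher or lower where its ratio is at least 2-fold, with a looser rule of 1.5-fold. Nfat5 itself had 5.61 FPKM in Scr_300, 7.93 in Scr_600, 3.47 in Nfat5-KO_300 and 6.88 in Nfat5-KO_600. It was lower in Nfat5-KO cells at both osmolalities, but an edited transcript can persist, so these levels do not check the edit. The 4 epithelial markers Krt8, Krt18, Cdh1 and Epcam summed to 1492 FPKM in Scr_300, 1131 in Scr_600, 1370 in Nfat5-KO_300 and 952 in Nfat5-KO_600. Of 10 markers of the principal cell, 5 reached 0.5 FPKM in a group, and the 10 summed to 50.7, 34.05, 69.6 and 100.3 FPKM. Gata3 had 3.41, 4.33, 11.8 and 30.04 FPKM and Hsd11b2 0.383, 0.655, 1.95 and 6.18. Tfcp2l1 had 40.6, 25.1, 48.9 and 53.4 FPKM, Scnn1a 2.95, 1.31, 3.56 and 7.03, and Aqp3 2.91, 2.07, 2.93 and 2.82. From Scr_300 to Scr_600 Gata3 and Hsd11b2 thus rose while Tfcp2l1, Scnn1a and Aqp3 fell. The part of these movements in the differences below was not tested. The defining genes Aqp2, Avpr2, Scnn1b and Scnn1g of the principal cell did not reach 0.5 FPKM, with Aqp2 at no more than 0.245 FPKM and listed at 0 in Scr_300. None of the markers of fibroblasts, endothelium, thick ascending limb or intercalated cells reached 0.5 FPKM, and 1 of 3 for leukocytes (Cd68) and 1 of 4 for proximal tubule (Lrp2) did. FPKM summed to 253810 in Scr_300, 231977 in Scr_600, 251137 in Nfat5-KO_300 and 212298 in Nfat5-KO_600. Rescaling to equal sums would raise the median of all genes by 0.12 (log2) in Nfat5-KO_600 against Scr_600, by 0.13 in Scr_600 against Scr_300 and by 0.24 in Nfat5-KO_600 against Nfat5-KO_300, so medians of gene groups are given relative to the median of all genes.

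Cells that gather unfolded protein in the ER signal through the sensors IRE1, ATF6 and PERK. IRE1 splices the Xbp1 transcript, and XBP1 and cleaved ATF6 switch on chaperones and the machinery that exports misfolded proteins for degradation. PERK phosphorylates the initiation factor eIF2, as do other kinases when amino acids or haem are short, which lowers translation in general but favours that of ATF4, whose targets serve amino acid supply, redox balance and, under lasting stress, cell death. FPKM covers the RNA only: Xbp1 splicing, ATF6 cleavage, eIF2 phosphorylation and ATF4 protein are not seen in these values.

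Most of the 11 chaperones were among the highest genes of the group, and none of the 11 varied by more than 1.79-fold over the 4 groups. Calr (calreticulin, a lectin chaperone that also stores calcium) had 267.7 FPKM in Scr_300, 211.4 in Scr_600, 279.4 in Nfat5-KO_300 and 213.9 in Nfat5-KO_600. Pdia3, the disulphide isomerase that works with calreticulin, had 264.2, 216.9, 253.3 and 195.3 FPKM in the same order. Both were lower at 600 than at 300 mosmol/kg in either genotype. Hsp90b1 (GRP94, the ER form of HSP90) had 187.0 FPKM in Scr_300, 141.2 in Scr_600, 154.7 in Nfat5-KO_300 and 104.5 in Nfat5-KO_600. Hspa5 (BiP, the main HSP70 of the ER and the inhibitor of the 3 sensors, at chr2:34771970-34777547 of GRCm38) had 144.5, 118.3, 143.3 and 94.0 FPKM. Nfat5-KO_600 was the lowest group for both, 1.79-fold below Scr_300 for Hsp90b1 and 1.54-fold below it for Hspa5. The isomerase Pdia6, which also attenuates IRE1, had 103.5, 75.8, 92.4 and 63.4 FPKM and showed the same order of groups, with a range of 1.63-fold.

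Canx (calnexin, the membrane partner of calreticulin) had 76.0 FPKM in Scr_300, 73.4 in Scr_600, 82.2 in Nfat5-KO_300 and 72.5 in Nfat5-KO_600. Pdia4, a further disulphide isomerase, had 53.7, 48.3, 60.9 and 54.3 FPKM. Creld2, a disulphide isomerase-like protein, had 42.7, 39.0, 45.0 and 37.3 FPKM, and so all 3 had their highest value in Nfat5-KO_300. Sdf2l1, a partner of BiP, had 22.4, 16.0, 22.6 and 17.7 FPKM. Manf, a secreted protein that protects cells in ER stress, had 21.8, 16.5, 21.1 and 14.5 FPKM. Sdf2l1 and Manf were thus lower at 600 mosmol/kg in both genotypes, whereas Hyou1 (GRP170, which exchanges nucleotide on BiP) had its lowest value in Scr_300, with 22.2, 26.2, 27.0 and 24.2 FPKM. Summed over the 11 chaperones, the level was 1206 FPKM in Scr_300, 983 in Scr_600, 1182 in Nfat5-KO_300 and 892 in Nfat5-KO_600. The summed epithelial markers and the FPKM summed over all genes had the same order of groups, so these sums carry the scale of the whole table. In Nfat5-KO_600 against Scr_600, 8 of the 11 had a negative ratio as deposited and 5 after rescaling to equal sums.

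The plot of the levels of all members shows how far the groups lie apart for each gene.

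**Figure D1:**
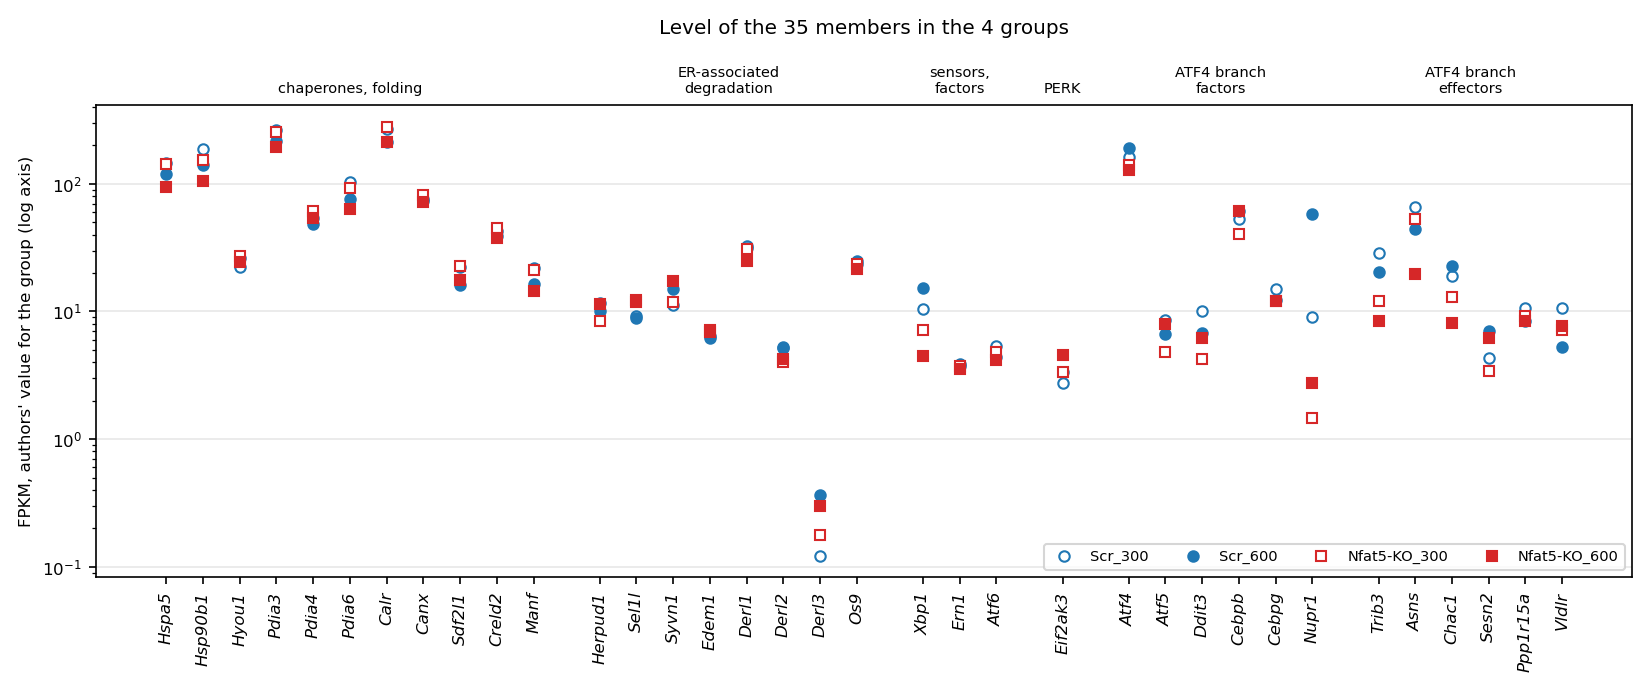
FPKM (log axis) of the 35 genes in Scr_300 (open circles), Scr_600 (filled circles), Nfat5-KO_300 (open squares) and Nfat5-KO_600 (filled squares), 1 value per group with no error bar, ordered by role. The symbols nearly coincide for most chaperone and degradation genes and spread widely for Nupr1 (1.47 to 58.2 FPKM), with smaller spreads for Xbp1, Trib3, Asns and Chac1. Derl3 also spreads, but below 0.5 FPKM in all groups.

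XBP1 and ATF6 act on chaperone promoters through the ER stress response element (ERSE: CCAAT, then 9 bases of any kind, then CCACG) and through ERSE-II (ATTGG, 1 base of any kind, CCACG). Both were searched on both strands in RefSeq promoters (250 bases before to 50 after the start, GRCm38.p6), which were held for 31 of the 35 genes. ERSE was found in 8 of 18 genes of the ER chaperone branch (Hspa5, Hsp90b1, Pdia6, Calr, Canx, Creld2, Syvn1 and Derl3) and in 0 of 13 of the ATF4 branch, against 37 of 27025 genes (0.137%). ERSE-II was found in Herpud1 and in 12 genes in all (0.0444%). A match describes the letters and is not a shown binding site. Neither element was found in Pdia3, Pdia4, Sdf2l1, Sel1l, Edem1, Derl2, Os9, Xbp1 and Ern1. No promoter was held for Hyou1, Manf, Derl1 and Atf6. The sequences of Canx and Derl3 are left out for brevity. The others are printed to show the letters behind these counts, with the element in capitals and each sequence read 5′ to 3′ on the strand of the gene.
Hspa5 (chr2:34772019-34772048, plus strand): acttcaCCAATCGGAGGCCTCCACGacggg
Calr (chr8:84847055-84847114, minus strand): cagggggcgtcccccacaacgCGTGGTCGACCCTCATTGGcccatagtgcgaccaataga
Hsp90b1 (chr10:86705618-86705677, minus strand): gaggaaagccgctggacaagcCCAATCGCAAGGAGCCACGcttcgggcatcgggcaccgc
Hsp90b1 (chr10:86705513-86705572, minus strand): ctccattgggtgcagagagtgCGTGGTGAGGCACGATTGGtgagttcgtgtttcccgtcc
Pdia6 (chr12:17266470-17266529, plus strand): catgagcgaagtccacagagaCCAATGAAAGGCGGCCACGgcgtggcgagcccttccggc
Creld2 (chr15:88819499-88819558, plus strand): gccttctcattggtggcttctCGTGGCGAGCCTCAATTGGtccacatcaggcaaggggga
Syvn1 (chr19:6046511-6046570, plus strand): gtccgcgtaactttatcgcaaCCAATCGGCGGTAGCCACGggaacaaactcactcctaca
Herpud1 (chr8:94386352-94386411, plus strand): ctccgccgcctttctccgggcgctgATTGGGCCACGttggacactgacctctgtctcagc
In Calr, Creld2 and the second Hsp90b1 sequence the element lies on the opposite strand. The Hspa5 sequence lies upstream of the RefSeq start but wholly within an exon of Hspa5 in the GENCODE annotation. None of the 7 ERSE genes that could be compared reached a 2-fold ratio in any of the 4 comparisons. Of all genes, 1.73% to 6.25% were 2-fold higher and 2.45% to 4.11% were 2-fold lower, depending on the comparison. A count of none among 7 lies near those shares.

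ER-associated degradation draws misfolded proteins out of the ER for the proteasome. Syvn1 (HRD1, the ubiquitin ligase at its centre) had 11.3 FPKM in Scr_300, 14.99 in Scr_600, 11.8 in Nfat5-KO_300 and 17.4 in Nfat5-KO_600. It was higher at 600 mosmol/kg in both genotypes, by 0.41 in Scr and 0.55 in Nfat5-KO cells on the log2 scale. Sel1l, the scaffold that holds SYVN1, had 9.19, 8.90, 12.2 and 11.8 FPKM, and was higher in Nfat5-KO than in Scr cells at both osmolalities (log2 ratios of 0.41 and 0.40). Herpud1, a membrane protein of the same complex, had 11.6, 10.1, 8.44 and 11.4 FPKM, with Nfat5-KO_300 the lowest. Derl1, a channel protein of the export machinery, had 32.7, 31.4, 30.6 and 24.9 FPKM and was lowest in Nfat5-KO_600. Its relative Derl2 had 5.21, 5.30, 4.04 and 4.21 FPKM and was lower in Nfat5-KO cells at both osmolalities. Os9, a lectin that hands glycoproteins to the complex, had 23.6, 24.995, 23.6 and 21.6 FPKM. Edem1, which trims mannose from such glycoproteins, had 6.45, 6.14, 7.19 and 6.84 FPKM, and neither gene varied by more than 1.17-fold over the groups. Derl3 had 0.122, 0.367, 0.178 and 0.301 FPKM, was below 0.5 FPKM in all 4 groups and was not compared, so that 34 of the 35 genes enter the counts.

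Among the sensors and factors of this branch, Xbp1 stood apart. Xbp1 (chr11:5520659-5525893, the factor that IRE1 activates by splicing) had 10.5 FPKM in Scr_300, 15.2 in Scr_600, 7.19 in Nfat5-KO_300 and 4.47 in Nfat5-KO_600. It was higher at 600 mosmol/kg in Scr cells (log2 ratio 0.52) and lower at 600 mosmol/kg in Nfat5-KO cells (-0.67), so that Nfat5-KO_600 was 3.39-fold below Scr_600. Ern1 (IRE1 itself) had 3.76, 3.90, 3.72 and 3.55 FPKM, a range of 1.10-fold. Atf6, the sensor that is cleaved to a transcription factor, had 5.33, 4.37, 4.82 and 4.18 FPKM, with the lower value of each genotype at 600 mosmol/kg. In Nfat5-KO cells this order of Atf6 was reversed after rescaling to equal sums. The levels of the sensors thus lay closer together than that of Xbp1.

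In the ATF4 branch, Eif2ak3 (PERK) had 2.74 FPKM in Scr_300, 3.35 in Scr_600, 3.35 in Nfat5-KO_300 and 4.53 in Nfat5-KO_600. It was higher in Nfat5-KO cells and higher at 600 mosmol/kg, with log2 ratios between 0.28 and 0.42. Atf4 (chr15:80255184-80257541) had 160.9, 191.3, 140.2 and 129.1 FPKM, and Nfat5-KO_600 was the lowest group as deposited, with a log2 ratio of -0.57 to Scr_600. Its ratio to Nfat5-KO_300 was only -0.12. After rescaling to equal sums, all 6 factors of the branch, Atf4 among them, were higher in Nfat5-KO_600 than in Nfat5-KO_300. Atf5, a relative of ATF4 that it induces, had 8.53, 6.68, 4.78 and 7.91 FPKM. Ddit3 (CHOP, a factor linked to cell death in lasting stress) had 10.0 FPKM in Scr_300, 6.79 in Scr_600, 4.21 in Nfat5-KO_300 and 6.15 in Nfat5-KO_600. In Atf5 and Ddit3, Nfat5-KO_300 was the lowest group, and hypertonicity went with a lower value in Scr and a higher one in Nfat5-KO cells. Cebpb, a C/EBP factor that pairs with ATF4, had 52.9, 60.7, 40.6 and 61.6 FPKM, with Nfat5-KO_300 again the lowest. Cebpg, another such partner, had 14.96, 12.3, 12.0 and 12.0 FPKM and was highest in Scr_300.

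Nupr1 (chr7:126623249-126630861), a small stress-induced chromatin protein that ATF4 switches on, varied most of all 35 genes. It had 8.98 FPKM in Scr_300, 58.2 in Scr_600, 1.47 in Nfat5-KO_300 and 2.73 in Nfat5-KO_600, so that both Nfat5-KO groups lay below both Scr groups. Scr_600 was 6.48-fold above Scr_300, and Nfat5-KO_600 was 1.86-fold above Nfat5-KO_300. Nfat5-KO cells were 6.11-fold below Scr cells at 300 mosmol/kg and 21.3-fold below them at 600 mosmol/kg.

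Of the ATF4 effectors, Trib3 (chr2:152337422-152344032, a pseudokinase that restrains ATF4 and CHOP) had 28.7 FPKM in Scr_300, 20.2 in Scr_600, 12.0 in Nfat5-KO_300 and 8.36 in Nfat5-KO_600. Nfat5-KO cells were 2.39-fold below Scr cells at 300 mosmol/kg and 2.42-fold at 600 mosmol/kg, and values were lower at 600 mosmol/kg in both genotypes. Asns (asparagine synthetase, chr6:7675169-7693254) had 66.3, 44.4, 52.6 and 19.5 FPKM. Its lowest value was in Nfat5-KO_600, 2.28-fold below Scr_600 and 2.69-fold below Nfat5-KO_300. Chac1 (chr2:119351229-119354381), which degrades glutathione, had 18.8, 22.6, 12.9 and 8.16 FPKM and lay 2.76-fold below Scr_600 in Nfat5-KO_600. Sesn2 (sestrin 2, an inhibitor of mTORC1 signalling) had 4.30, 7.002, 3.39 and 6.25 FPKM and was higher at 600 mosmol/kg in both genotypes, with log2 ratios of 0.69 in Scr and 0.86 in Nfat5-KO cells. Ppp1r15a (GADD34, which directs the removal of phosphate from eIF2) had 10.7, 8.42, 9.25 and 8.42 FPKM, a range of 1.27-fold. Vldlr, the very low density lipoprotein receptor, had 10.7, 5.23, 7.18 and 7.63 FPKM and was 2.04-fold lower in Scr_600 than in Scr_300. The 6 effectors summed to 139.5 FPKM in Scr_300, 107.9 in Scr_600, 97.3 in Nfat5-KO_300 and 58.3 in Nfat5-KO_600.

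ATF4 binds with C/EBP factors at the C/EBP-ATF response element (CARE), searched here as TGATGNAA on both strands. It was found in 5 of 13 genes of the ATF4 branch (Nupr1, Trib3, Asns, Chac1 and Vldlr) and in 1 of 18 of the ER chaperone branch (Herpud1), against 1219 of 27025 genes (4.51%). The 5 sequences below are those of all 5 genes of the ATF4 branch with a match. They include the 4 genes of the branch whose level in Nfat5-KO_600 was 2-fold or more below Scr_600, and Vldlr, whose ratio had the other sign. The branch itself was made up of genes known to go with ATF4, and a part of the element in these levels was not tested. The element is in capitals.
Nupr1 (chr7:126625562-126625591, minus strand): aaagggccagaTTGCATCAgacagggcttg
Trib3 (chr2:152344035-152344072, minus strand): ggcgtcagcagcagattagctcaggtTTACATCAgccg
Asns (chr6:7693214-7693243, minus strand): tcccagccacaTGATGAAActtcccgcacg
Chac1 (chr2:119351023-119351082, plus strand): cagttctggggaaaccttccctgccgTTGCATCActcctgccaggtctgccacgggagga
Vldlr (chr19:27216809-27216838, plus strand): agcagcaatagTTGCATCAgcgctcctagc
All but that of Asns hold the element on the opposite strand. In Trib3 the element lies after the RefSeq start, at bases 14 to 21, and Vldlr had a further RefSeq promoter without the element. The Nupr1, Asns and Vldlr sequences lie upstream of the RefSeq start used here but wholly within exons of these genes in the GENCODE annotation. The core TGGAAA of the NFAT5 site was found in the promoters of Calr, Sdf2l1, Derl3, Xbp1, Atf4, Nupr1 and Ppp1r15a, but also in 23.9% of all 27025 genes. The core of the XBP1 site, TGACGTG, was found in Hspa5 (2.22% of all genes), and the palindrome TTGCGCAA bound by C/EBP factors in Canx (0.207%). No match of one motif overlapped a match of another in these genes.

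The comparison of Nfat5-KO_300 with Scr_300 asks what the loss of NFAT5 goes with in isotonic medium. Most genes of the ATF4 branch had lower values in Nfat5-KO_300, while the ER chaperone branch was balanced. Nupr1 (-2.53), Trib3 (-1.25) and Ddit3 (-1.23) were at least 2-fold lower and Atf5 (-0.82) at least 1.5-fold lower on the log2 scale, and 12 of the 13 genes of the ATF4 branch had a negative ratio, against 50.2% of all genes, Eif2ak3 (0.28) being the exception. The 3 genes are 8.82% of the 34 compared and 23.1% of the 13 of the ATF4 branch, against 2.45% of all 12710 genes that were 2-fold lower. At 1.5-fold, 4 of 34 were lower (11.8%) against 6.22% of all genes. No member was higher by either rule, against 1.73% of all genes at 2-fold and 5.27% at 1.5-fold. The median ratio relative to that of all genes was -0.38 for the ATF4 branch and -0.01 for the ER chaperone branch, in which the ratios ran from -0.54 (Xbp1) to 0.41 (Sel1l) and 11 of 21 were negative. Nupr1 ranked 42 from the lowest among the 12710 genes, Trib3 193 and Ddit3 203.

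In the same comparison under hypertonicity, Nfat5-KO_600 against Scr_600, 5 genes were at least 2-fold lower: Nupr1 (-4.36), Xbp1 (-1.74), Chac1 (-1.45), Trib3 (-1.26) and Asns (-1.18). They are 14.7% of the 34 genes, and the 4 of the ATF4 branch are 30.8% of its 13, against 3.68% of all 13069 genes. The looser rule of 1.5-fold added no gene, so the share of members stayed at 14.7%, against 9.43% of all genes at least 1.5-fold lower. None was higher, against 3.76% of all genes at 2-fold and 9.83% at 1.5-fold. Nupr1 ranked 8 from the lowest of all 13069 genes and Xbp1 ranked 162. The genes that were low did not include all that were low at 300 mosmol/kg: Ddit3 had a ratio of -0.14 and Atf5 of 0.24. Hence the median of the ATF4 branch lay only -0.12 from that of all genes and that of the ER chaperone branch -0.09, while the median of the 6 effectors lay at -0.65.

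**Figure D2:**
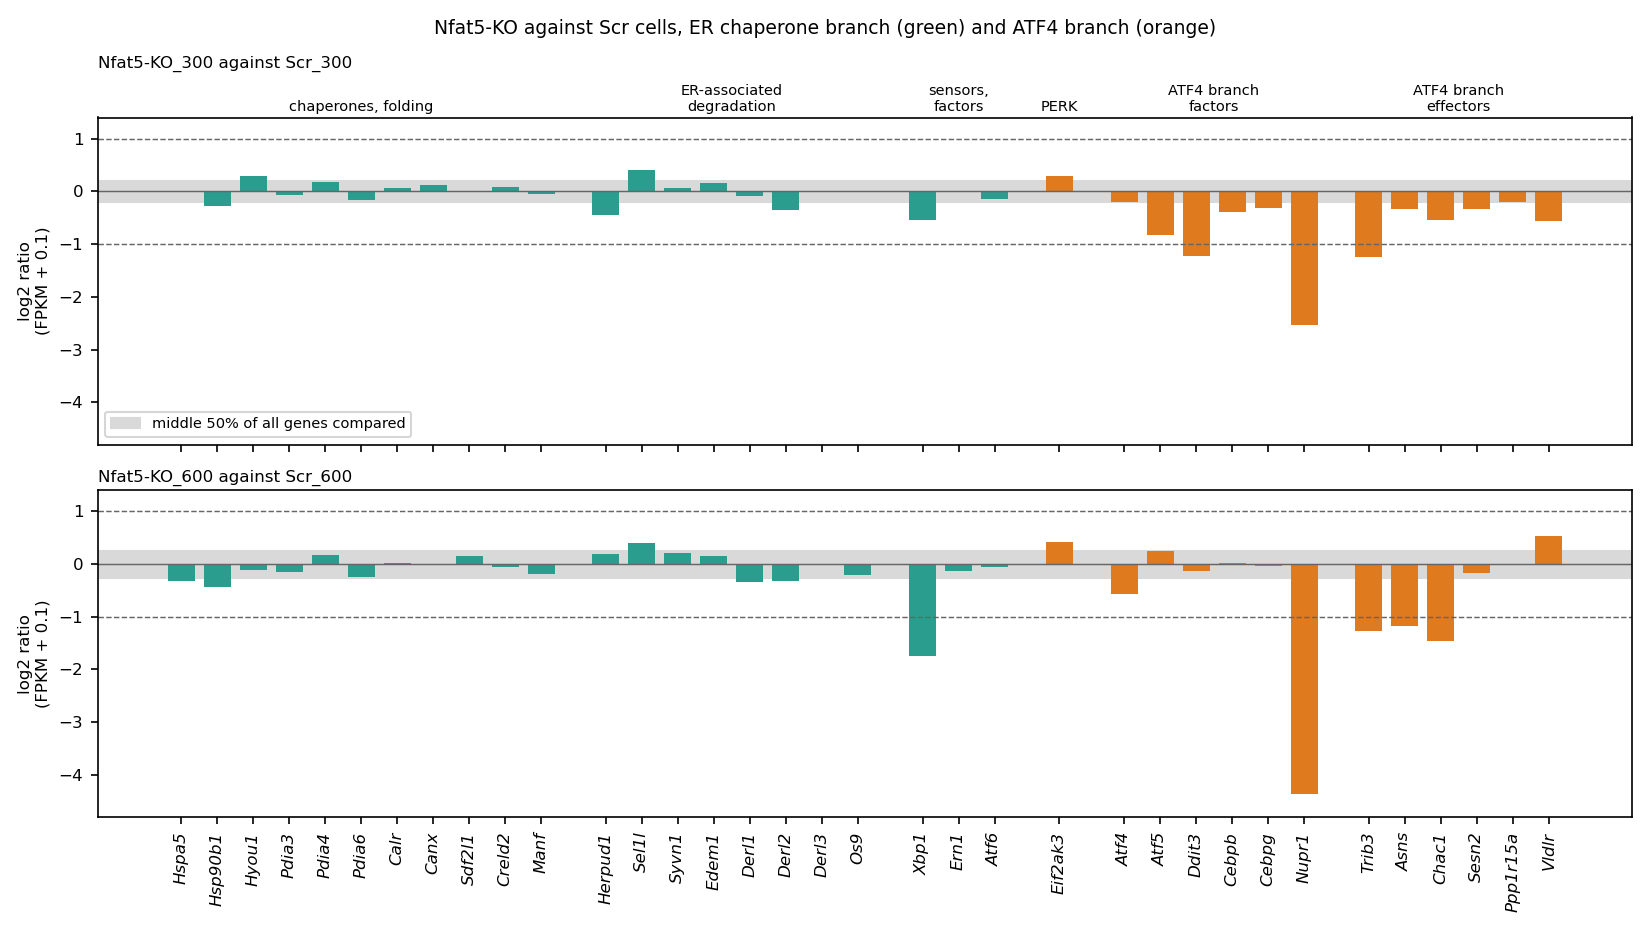
Log2 ratio of FPKM + 0.1 of Nfat5-KO over Scr cells at 300 mosmol/kg (top) and 600 mosmol/kg (bottom), 1 bar per gene, green for the ER chaperone branch and orange for the ATF4 branch, with dashed lines at 2-fold and a grey band for the middle 50% of all genes compared. Bars below the lower dashed line are Nupr1, Trib3 and Ddit3 at 300 mosmol/kg and Nupr1, Xbp1, Chac1, Trib3 and Asns at 600 mosmol/kg; no bar passes the upper one.

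The comparison of Scr_600 with Scr_300 asks what hypertonicity goes with in control cells. Nupr1 was the only gene of the 34 at least 2-fold higher (2.68, ranked 86 from the highest of 12935 genes) and Vldlr the only one at least 2-fold lower (-1.01). Each is 2.94% of the 34 genes, against 4.81% of all genes higher and 2.86% lower, so that both shares lay near or below those of all genes. Vldlr lay just past 2-fold and was under it in 4 of the alternatives of processing. At 1.5-fold Sesn2 (0.69) was also higher, which gives 2 of 34 against 10.4% of all genes, and no further gene was lower, which gives 1 of 34 against 9.01%. Of the 11 chaperones, 10 had a negative ratio, against 54.6% of all genes, with the lowest at -0.48 (Sdf2l1) and Hyou1 at 0.24. None of the 11 was 1.5-fold lower, and their median lay at -0.25 relative to all genes. After rescaling to equal sums 9 of the 11 were negative. The median relative to all genes was -0.09 for the ER chaperone branch and -0.24 for the ATF4 branch.

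In Nfat5-KO cells, Nfat5-KO_600 against Nfat5-KO_300, Asns alone was at least 2-fold lower (-1.42, ranked 187 from the lowest of 12988 genes), which is 2.94% of the 34 genes against 4.11% of all genes. None was 2-fold higher, against 6.25% of all genes. At 1.5-fold, 4 genes were higher, namely Sesn2 (0.86), Nupr1 (0.85), Atf5 (0.71) and Cebpb (0.60), which is 11.8% of the 34 against 14.1% of all genes. As many were lower, with Xbp1 (-0.67), Chac1 (-0.65) and Hspa5 (-0.61) beside Asns, against 13.8% of all genes. All 11 chaperones had a negative ratio, against 52.8% of all genes, from -0.61 to -0.16, and a median of -0.34 relative to all genes. After rescaling to equal sums 8 of the 11 were negative, and Sesn2 and Nupr1 passed 2-fold. The median relative to all genes was -0.16 for the ER chaperone branch and 0.13 for the ATF4 branch, whose 6 factors lay at 0.61 and whose 6 effectors lay at -0.28.

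The difference between these responses, as the log2 ratio in Nfat5-KO cells minus that in Scr cells, was taken as a description and was not tested. Over 13420 genes its median was -0.01 and 95% of the genes lay between -1.10 and 1.24. Nupr1 (-1.83) and Xbp1 (-1.20) lay below that range, followed by Chac1 (-0.91) and Asns (-0.85) inside it. At the other end were Vldlr (1.10), Ddit3 (1.09), Atf5 (1.06) and Herpud1 (0.63), all within the range. Trib3 had -0.01, since hypertonicity went with a ratio of -0.50 in Scr and -0.51 in Nfat5-KO cells. Both responses rest on the same 4 values per gene as the comparisons of genotype.

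**Figure D3:**
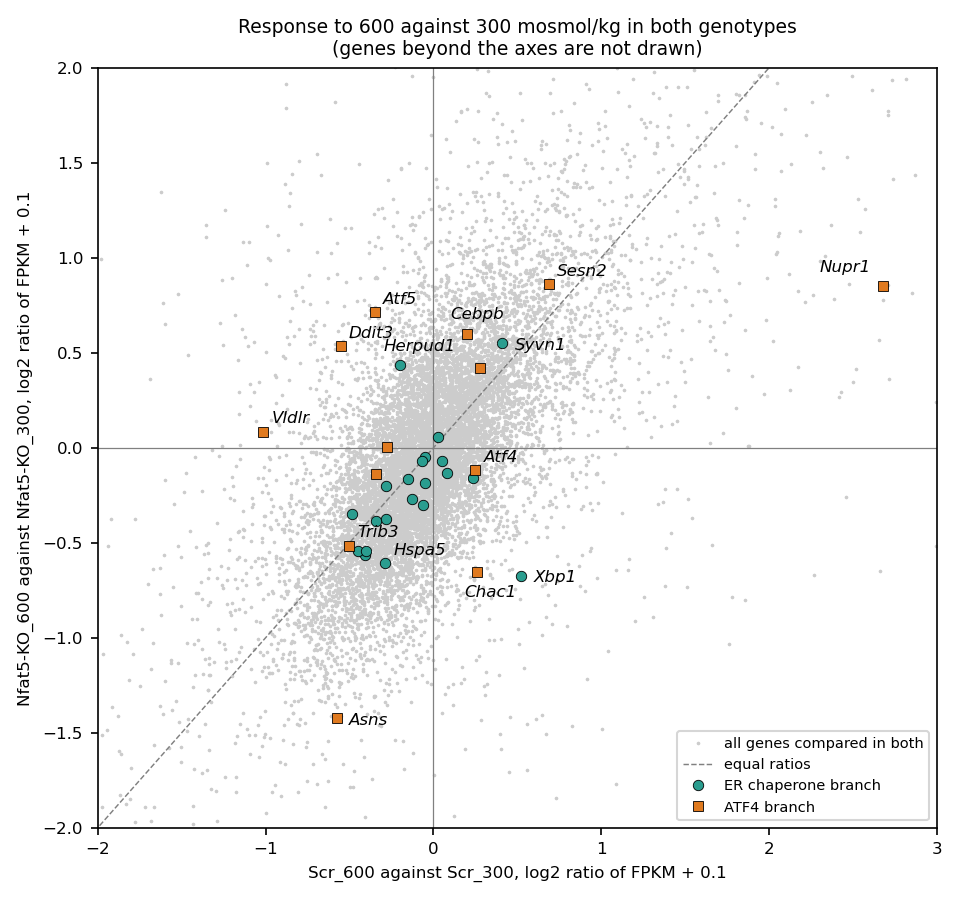
Log2 ratio of FPKM + 0.1 at 600 over 300 mosmol/kg in Scr cells (horizontal) and in Nfat5-KO cells (vertical), circles for the ER chaperone branch, squares for the ATF4 branch and grey dots for all other genes, with a dashed line of equal ratios. Nupr1 lies far to the right (2.68 and 0.85), Xbp1 and Chac1 lie at lower right and Vldlr, Ddit3, Atf5 and Herpud1 at upper left, while Trib3 sits on the line.

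Further genes of the same pathways were taken from lists of known members. Of 35 other ATF4 targets (amino acid synthesis, amino acid transport, tRNA charging and stress genes), 34 could be compared in Nfat5-KO_600 against Scr_600, where 30 had a negative ratio, against 52.2% of all genes. After rescaling to equal sums 28 had one. Their median lay at -0.54 relative to all genes. In it 5 were at least 2-fold lower (14.7%, against 3.68% of all genes) and 15 at least 1.5-fold lower (44.1%, against 9.43%), with none higher. Psat1, an enzyme of serine synthesis, had 42.4 FPKM against 138.9 (-1.71). Ddit4 (REDD1, an inhibitor of mTORC1) had 23.0 FPKM against 60.4 (-1.39). Fgf21, a secreted stress hormone, had 0.189 FPKM against 1.69 (-2.63), and the glycine transporter Slc6a9 had 1.19 FPKM against 3.85 (-1.62). Fgf21 and Slc6a9 are low genes.

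By their median, these targets stood closer to all genes in the other comparisons. In Nfat5-KO_300 against Scr_300 their median relative to all genes was -0.19, with 7 of 34 at least 1.5-fold lower (20.6%, against 6.22% of all genes) and 1 higher (2.94%, against 5.27%). Fgf21 (-1.62) was the only one at 2-fold, which is 2.94% against 2.45% of all genes. In Scr_600 against Scr_300 it was 0.03, with 17 of 34 negative, against 54.6% of all genes, and Cth, an enzyme of cysteine synthesis, at 0.719 FPKM against 1.97 (-1.34). In Nfat5-KO_600 against Nfat5-KO_300 it was -0.37, with 26 of 33 negative (18 after rescaling to equal sums), against 52.8% of all genes. There, 11 of 33 were at least 1.5-fold lower (33.3%, against 13.8% of all genes) and 1 higher (3.03%, against 14.1%). Pycr1, an enzyme of proline synthesis, had 1.49 FPKM against 4.10 (-1.40).

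The other lists of ER function moved little with genotype. The 34 other genes of ER folding and translocation had medians relative to all genes of 0.02 at 300 and -0.03 at 600 mosmol/kg, and of -0.18 in Scr and -0.27 in Nfat5-KO cells with hypertonicity. Fkbp11, a prolyl isomerase of the ER, had 3.36 FPKM in Scr_300, 1.04 in Scr_600, 1.52 in Nfat5-KO_300 and 0.593 in Nfat5-KO_600. Its relative Fkbp14 had 1.61 FPKM in Nfat5-KO_600 but 0.232 in Scr_600 and 0.257 in Nfat5-KO_300. The 22 other genes of ER-associated degradation held none at 2-fold in any comparison, with medians of -0.01, -0.04, 0.01 and -0.09 in the order of the comparisons above. Among all genes, 1.73% to 6.25% were 2-fold higher and 2.45% to 4.11% were 2-fold lower, so that a count of none lies near those shares. Of the 12 other sensors and factors 9 could be compared, with medians of -0.13, -0.14, 0.27 and 0.36, and Crebrf, a regulator of that group, was low in Nfat5-KO_300 (0.760 FPKM, against 2.05 in Scr_300 and 1.89 in Nfat5-KO_600). The 16 genes of the eIF2 phosphorylation cycle had medians of 0.11, 0.07, 0.07 and -0.06. In that list Eif2b3, a subunit of the exchange factor of eIF2, was the only one at 2-fold, at 1.86 FPKM in Nfat5-KO_600 against 4.32 in Nfat5-KO_300 (-1.17). It is 6.25% of the 16, against 4.11% of all genes 2-fold lower in that comparison. At 1.5-fold, 3 of the 16 were lower in Scr_600 against Scr_300 (18.75%, against 9.01% of all genes). In Nfat5-KO_600 against Nfat5-KO_300, 4 were lower (25%, against 13.8% of all genes).

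**Figure D4:**
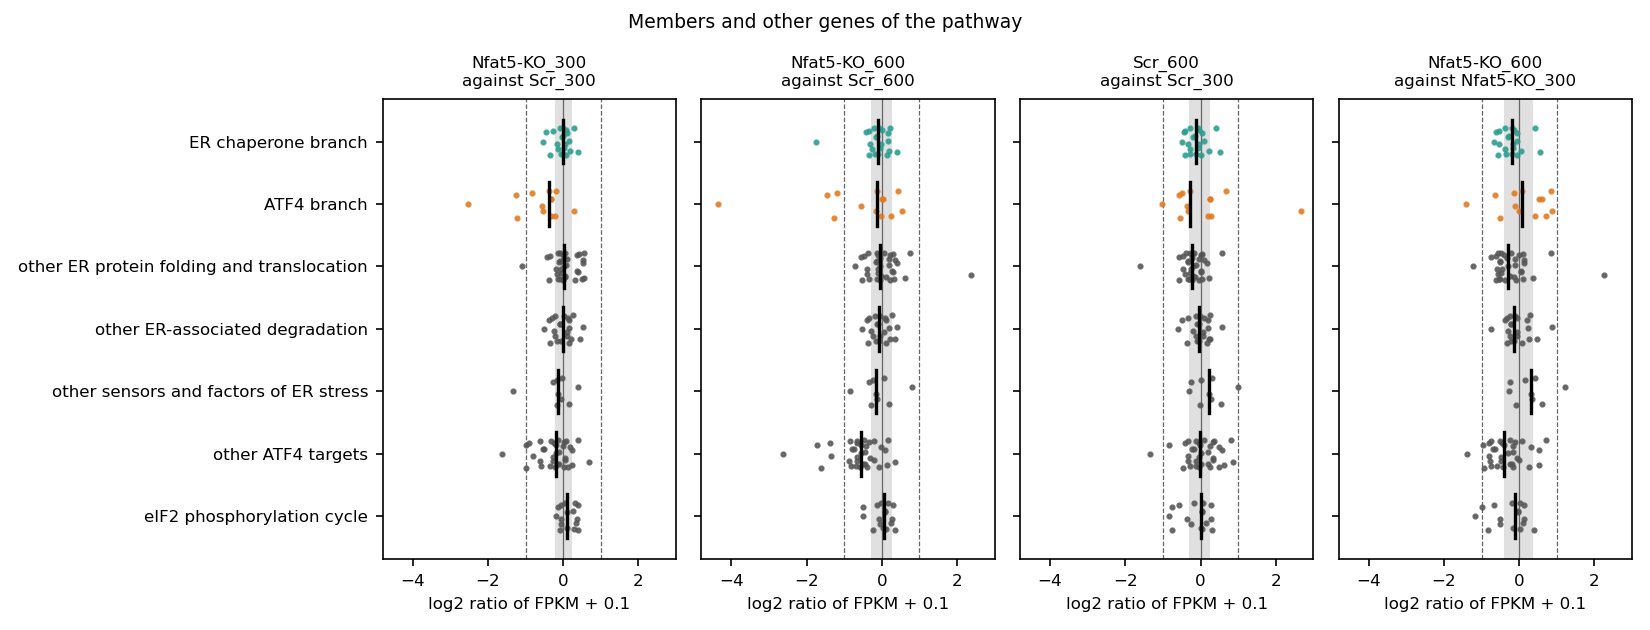
Log2 ratio of FPKM + 0.1 in the 4 comparisons (panels) for each gene (dots) of the ER chaperone branch, the ATF4 branch and 5 lists of other pathway genes, with a black bar at the median of each list, dashed lines at 2-fold and a grey band for the middle 50% of all genes compared. The bar of the other ATF4 targets lies left of the grey band in Nfat5-KO_600 against Scr_600, where 30 of 34 dots are below 0, as do their bar in Nfat5-KO_600 against Nfat5-KO_300 and that of the ATF4 branch in Nfat5-KO_300 against Scr_300.

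Some of these genes share bases with others in the annotation, and the library kit is not stated to keep the strand, so reads of overlapping genes cannot be told apart. Cebpb shares 20.7% of its exon bases with Tmem189 on the opposite strand, Hsp90b1 10.3% with 1810014B01Rik and Eif2ak3 8.05% with Gm43292, and no other member shares more than 4.71% with any single gene of another name. Ddit3 has 2 gene models, the smaller of which lies within the larger, and 2 rows in the table, of which the row with values above 0 was used.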

How the data were processed

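The series holds 12 RNA-seq libraries of mpkCCD cells, of which Scr_300 and Scr_600 had 2 each and Nfat5-KO_300 and Nfat5-KO_600 had 4 each. The authors purified mRNA with poly-T beads, discarded low-quality reads and those with adapter or poly-N sequence, and aligned the remaining read pairs to GRCm38/mm10 by HISAT2. HTSeq gave the count of each gene, from which RPKM followed by gene length. The deposited values are FPKM, 1 per gene and group. Versions of these tools and how the libraries were combined are not given in the sources used here. Total reads per library are unknown, so no interval or detection limit was calculated.

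The table held 54839 rows, of which 2436 had no value. After 311 exact duplicates had been removed, 37 symbols had several rows: 18 were kept by their only row above 0 and 19 were left out. Of the 52033 genes used, 29633 were above 0 and 13420 reached 0.5 FPKM in a group. Log2 ratios of FPKM + 0.1 understate the change of low genes. The 35 members and all lists were chosen with earlier results of these data known, and some lists share a gene. All members are named. Of the other lists, genes at least 2-fold apart are named, at most 4 per list and comparison. No test could be run on 1 value per group. The fold rule was tested on simulated data.

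Alternatives were a pseudocount of 1 or 0.01, a mean of at least 1 FPKM or no filter, 3 other scalings and a fold of 1.5. Positions and exons come from GENCODE M21 (GRCm38) and promoters from RefSeq (GRCm38.p6), which held 31 of the 35 members. Protein sequences were not analysed here. Calculations used pandas 2.3.3 and numpy 2.4.6 under Python 3.11.15, and plots matplotlib 3.10.9.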

Additional observations from a re-analysis of the deposited data

How the results depend on the processing

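No paired analysis was possible because the table holds 1 value per gene and group, and for the same reason no replicate could be left out. For each of 7 alternatives all 136 log2 ratios of members moved by less than 1.5-fold. The filters cannot change a ratio, and rescaling shifts nearly all genes alike, by about 0.24 (log2) at most. That is under the limit of 0.58, so this outcome was fixed in advance for the filters and scalings. Of the 11 ratios of members at 2-fold or more, 10 or 11 were at 2-fold under each alternative, and 2 others joined after rescaling to equal sums, with or without mitochondrial genes. In Scr_600 against Scr_300 the number at 2-fold was 2, and 1 with a pseudocount of 1 FPKM, with median-of-ratios factors and after either rescaling, since Vldlr lay at the limit. In Nfat5-KO_600 against Nfat5-KO_300 it was 1, and 3 after either rescaling, and 8 at a fold of 1.5. The median of the ER chaperone branch changed sign after rescaling to equal sums, from -0.01 to 0.0032 (but -0.0053 without mitochondrial genes) in Nfat5-KO_300 against Scr_300, from -0.11 to 0.014 (0.012) in Nfat5-KO_600 against Scr_600 and from -0.20 to 0.037 (0.039) in Nfat5-KO_600 against Nfat5-KO_300. Relative to the median of all genes it lay at -0.01, -0.09 and -0.17 after rescaling, so the sign follows the scale of the whole table. Rescaling also moved the split of all genes at 2-fold, with 61.6% of them higher in Nfat5-KO_600 against Scr_600 (50.5% as deposited) and 82.8% in Nfat5-KO_600 against Nfat5-KO_300 (60.3%). The median of the ATF4 branch kept its direction in all 4 comparisons under these alternatives. In Nfat5-KO_600 against Scr_600, however, it moved from -0.14 to -0.015 after rescaling to equal sums (-0.017 without mitochondrial genes). There, 7 of 13 genes were then negative instead of 9. Relative to the median of all genes, that of the branch stayed at -0.12. Differences of less than 1.5-fold between groups cannot be set against any replicate spread here.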
